A study of Manacus vitellinus and Taeniopygia guttata with 24 samples.

Results

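Gene expression was compared between 2 wing muscles of the same birds, the scapulohumeralis caudalis (SH) and the pectoralis (PEC), in zebra finches (Taeniopygia guttata) given flutamide. The comparison holds 6 of the 24 libraries of the study, 3 of SH and 3 of PEC, chosen by their titles. Libraries with the same number were paired, because the deposited files give both muscles of a number the same bird code. Per the labels' protocols, these males carried a flutamide implant and, from the next day, an implant of testosterone, so the birds had both the hormone and a drug that opposes it. The titles mark the group only with a minus sign, which was read here as the flutamide implant. A conflict remains in the labels, since the treatment field of these samples speaks of an absence of testosterone while the protocol gives the hormone to all finches. The nearest group for comparison was 3 zebra finches that received a blank implant before the same testosterone (T-only, 6 libraries). The other 12 libraries came from golden-collared manakins (Manacus vitellinus) with a testosterone or a blank implant. The sources used here state no strain, age or implant dose.

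Flutamide is an antiandrogen, a drug that opposes the action of androgens such as testosterone, the hormones that change gene expression and mass in many muscles. The pectoralis is the large flight muscle that powers the downstroke of the wing, and SH is a smaller shoulder muscle that draws the wing back towards the body. Skeletal muscles differ from each other in contractile protein isoforms, in energy metabolism and in their content of nerve, vessels and connective tissue, and their most abundant messages usually encode contractile and mitochondrial proteins. The question was which transcripts differ between the muscles in birds given this antiandrogen. The files list genes by Ensembl identifier without names, and 0 of them matched the available gene table, which describes a manakin assembly. Genes are therefore given by identifier, no role is stated for them, and markers of muscle or of other cell types could not be read to check the labelled tissues.

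The 6 libraries held 15800344 to 23458937 reads, of which 66.6% to 73.7% fell in genes. Values are RPKM, reads scaled to the length of a gene and to the reads of its library, and the whole reads behind them were recovered. SH listed 11193, 11358 and 11480 genes in birds 1, 2 and 3, and PEC 10790, 10874 and 11298. The SH library listed more genes in each of the 3 birds, although it was the shallower library in birds 2 and 3 (16192646 against 17555746 reads, and 15800344 against 23458937). In bird 1 SH had 16244120 reads and PEC 15931555, but fewer of them fell in genes in SH (11406349 against 11743806). The 20 most abundant genes took 48.5%, 41.2% and 47.7% of all RPKM in SH and 50.01%, 46.5% and 45.0% in PEC, so SH was lower in birds 1 and 2 and higher in bird 3. The muscles shared 17 of their 20 top genes by mean RPKM. With 3 birds, an exact paired permutation test of a single value cannot give a two-sided p below 0.25, so these library values were not tested.

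Across the transcriptome SH stood above PEC more often than below it. Of 8512 genes with at least 1 RPKM in at least 3 of the 6 libraries, 819 (9.62%) differed between the muscles in limma's moderated test with the bird as a block (Benjamini-Hochberg adjusted p below 0.05). Of these, 600 (7.05%) were higher in SH and 219 (2.57%) were lower. All differences are on log2(RPKM + 1), where the added 1 shrinks the difference of rare transcripts. Among the called genes the median difference was 1.07 for those higher in SH and -1.12 for those lower, and the smallest size was 0.80. On that scale the difference reached 2-fold in 381 genes higher in SH and 157 lower, and 4-fold in 24 and 15. In bulk tissue, fewer cells of a type and less RNA per cell cannot be told apart.

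The balance between the directions depended on how the libraries were scaled. The median over all genes tested was 0.25 above zero in SH. When libraries were scaled to the median ratio over genes, that median was -0.002 and 96 genes were called higher and 133 lower. Quantile scaling gave 144 higher and 166 lower. All 600 genes called higher and all 219 called lower kept their sign with quantile scaling. With median-ratio scaling, 591 of 591 and 218 of 218 that were tested did so. The called differences were at least 0.80 in size, more than the shift of the median, so a change of sign was unlikely beforehand. Under all 3 scalings, 203 genes (95 higher and 108 lower) were called. Without the pairing by bird, 95 genes were called.

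**Figure D1:**
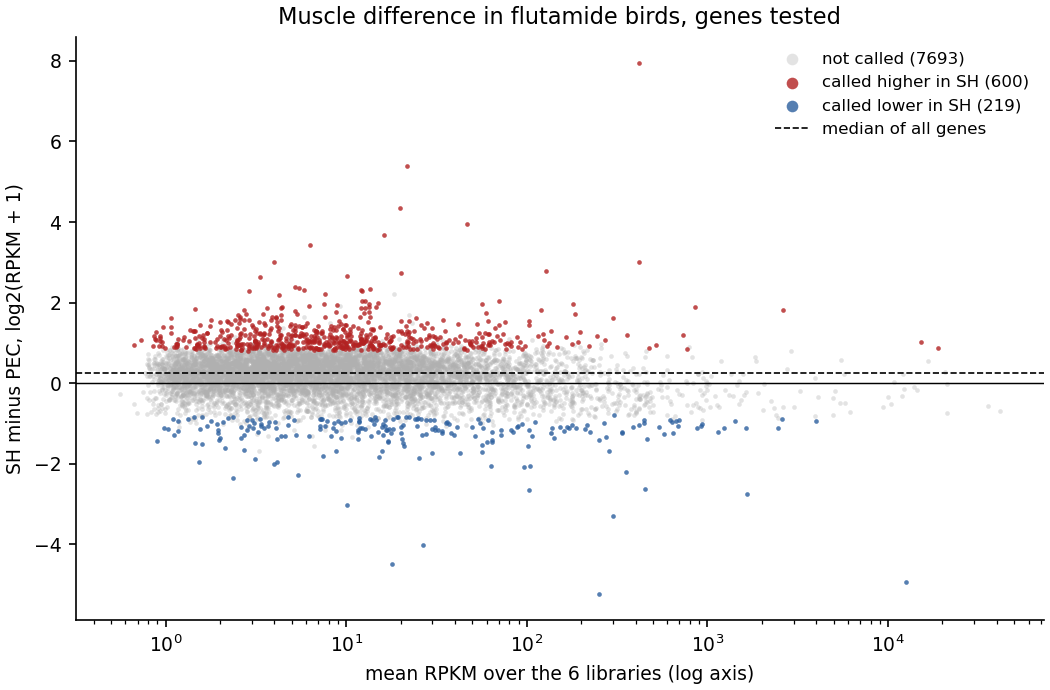
Difference between muscles (SH minus PEC, log2(RPKM + 1)) against the mean RPKM over the 6 flutamide libraries (log axis), 1 point for each of the 8512 genes tested. Red points are the 600 genes called higher in SH and blue points the 219 called lower, the solid line marks no difference and the dashed line the median of 0.25.

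Of the 2 genes with the largest excess in SH, one was low in PEC and the other had no PEC reads. ENSTGUG00000010713 was at 700, 748 and 1054 RPKM in SH of birds 1, 2 and 3, from 10536 to 15415 reads. In PEC of the same birds it was at 1.15, 1.91 and 4.97 RPKM, from 17 to 108 reads. The groups were far apart in every bird, with SH 608, 392 and 212 times PEC. The log2 difference was 7.94 ± 0.25 (SE of the fit, 3 birds, limma adjusted p = 8.4e-09). Since limma moderates the variance behind each SE over all genes, an SE given here is not the spread between birds. The bird with the highest SH level, bird 3, also had the highest PEC level, and so the smallest ratio.

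ENSTGUG00000006624 was at 54.8, 51.3 and 24.9 RPKM in SH (649, 606 and 287 reads) and had no read in PEC of any flutamide bird. A count of 0 allows up to 3 reads, which is 0.258, 0.234 and 0.175 RPKM in the PEC libraries of birds 1, 2 and 3. SH was thus at least 212, 219 and 142-fold higher than PEC in these birds, bounds that cover counting error only. The gene met the level needed for testing only through the 3 SH libraries, so it had to differ, and its fitted difference of 5.40 is given as a description that depends on the pseudocount. SH of bird 3 held less than the other two, and all SH values lay above all PEC values.

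The 2 genes with the largest deficit in SH behaved unlike each other across birds. ENSTGUG00000006008 was one of the most abundant transcripts of PEC, at 19214, 33016 and 20401 RPKM in birds 1, 2 and 3. In SH it was at 250.3, 1661 and 1066 RPKM. It made up 2.49%, 4.42% and 2.94% of all RPKM in PEC and 0.0367%, 0.267% and 0.157% in SH. PEC exceeded SH 76.8-fold in bird 1 and 19.9-fold and 19.1-fold in birds 2 and 3, and the groups did not overlap. The log2 difference was -4.94 ± 0.35 (SE of the fit, limma adjusted p = 1.91e-05), and bird by bird it was -6.26, -4.31 and -4.26.

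ENSTGUG00000001851 varied widely between birds. In PEC it was at 19.4 RPKM in bird 1 but at 805 and 660 RPKM in birds 2 and 3. In SH it was at 0.908, 6.01 and 14.4 RPKM, the first value resting on 5 reads. PEC was 21.4, 134 and 45.9 times SH within the birds. PEC of bird 1 lay only slightly above SH of bird 3, so the groups were separated mainly within birds. The log2 difference was -5.23 ± 0.47 (SE of the fit, limma adjusted p = 0.0001), and it was not called when the pairing by bird was left out (adjusted p = 0.0836). Bird by bird the difference was -3.42, -6.84 and -5.43, a spread that this SE does not measure.

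**Figure D2:**
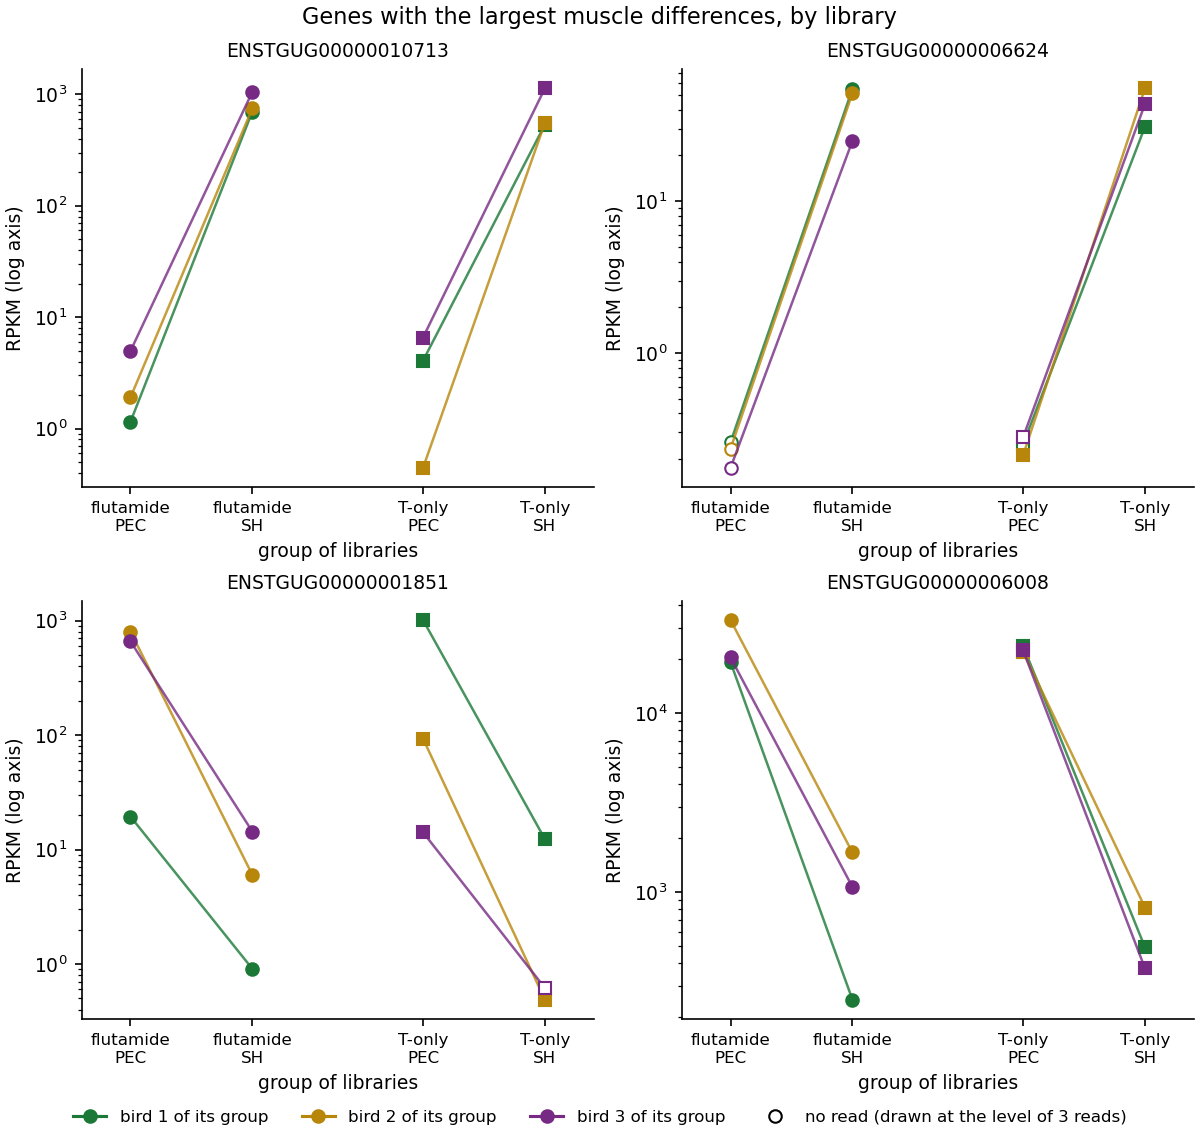
RPKM (log axis) of the 4 genes with the largest differences in each library of the flutamide and T-only zebra finches, with a line joining PEC and SH of a bird and open symbols for libraries without a read, drawn at the level of 3 reads. In all 6 birds the 2 upper genes stand higher in SH and the 2 lower genes higher in PEC.

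Behind these 4, the next 10 genes in each direction showed smaller differences. The next 10 higher in SH had log2 differences from 4.36 to 2.64, with means of 6.63 to 796 RPKM in SH and 0 to 44.4 RPKM in PEC, and in all 10 every SH library lay above every PEC library. The next 10 lower in SH ran from -4.49 to -2.20, with means of 4.75 to 2733 RPKM in PEC and 0 to 572 in SH, and 8 of the 10 had no overlap. Over all genes tested, 25.2% had every SH library above every PEC library and 5.9% the reverse. Among the genes called, 553 of 600 and 167 of 219 were so separated. Genes were called and ranked on the values of these same libraries, so their separation follows largely from that choice and is no separate check. The separated genes include those below 1 RPKM in all libraries of the lower muscle (53 called higher and 12 called lower in SH). These entered the test through the other muscle alone, so their separation was fixed beforehand, and they were not set apart.

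Few genes were listed in all 3 libraries of 1 muscle and in none of the other, and these were mostly rare. Genes listed in only some libraries of a single muscle were not counted. Of 13097 genes listed in at least 1 of the 6 libraries, 9466 were listed in all 6. In all 3 SH libraries and in no PEC library, 68 genes were listed, with a median of 13.5 reads summed over the SH libraries. Only 4 of the 68 had at least 10 reads in each SH library. The reverse held for 19 genes, with a median of 14 reads and at most 45 over the PEC libraries. In the T-only finches, 7 of the 68 genes were unlisted in all 3 PEC libraries and 3 of the 19 in all 3 SH libraries. Their listing in the other muscle of the T-only birds was not counted. No share over all genes is given either, so these counts do not show that the restriction to 1 muscle recurred. Of the 68 and the 19 genes, only 4 and 3 reached the level needed for testing, and they reached it through the muscle in which they were listed. Among called genes, 53 of the 600 higher in SH were below 1 RPKM in all PEC libraries, and 12 of the 219 lower in SH were below 1 RPKM in all SH libraries. These 53 and 12 genes also entered the test only through the muscle in which they were high, so their calls are a description. The same counts over all genes tested are not given here, so no excess among called genes can be read from them.

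Abundant transcripts were more often lower in SH, and the others more often higher, in the values as deposited. Of 131 genes with a mean of 500 RPKM or more, 20 were called lower and 7 higher in SH, with differences of -4.94 to -0.89 and of 0.84 to 1.90. Their median over all 131 was -0.31, and 62 of them were lower in SH in all 3 birds against 18 higher in all 3. Together they took 68.5%, 64.3% and 68.7% of all RPKM in SH of birds 1, 2 and 3 and 73.3%, 72.4% and 68.7% in PEC, so bird 3 showed no difference in this share. From 50 to 500 RPKM, 67 of 990 genes were higher and 54 lower, with a median of 0.04. From 5 to 50 RPKM, 310 of 4026 were higher and 92 lower (median 0.29), and under 5 RPKM 216 of 3365 were higher and 53 lower (median 0.26). With median-ratio scaling the abundant class kept its lean, with 6 lower and 1 higher, while quantile scaling, which gives all libraries the same distribution, left 2 lower and 7 higher.

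**Figure D3:**
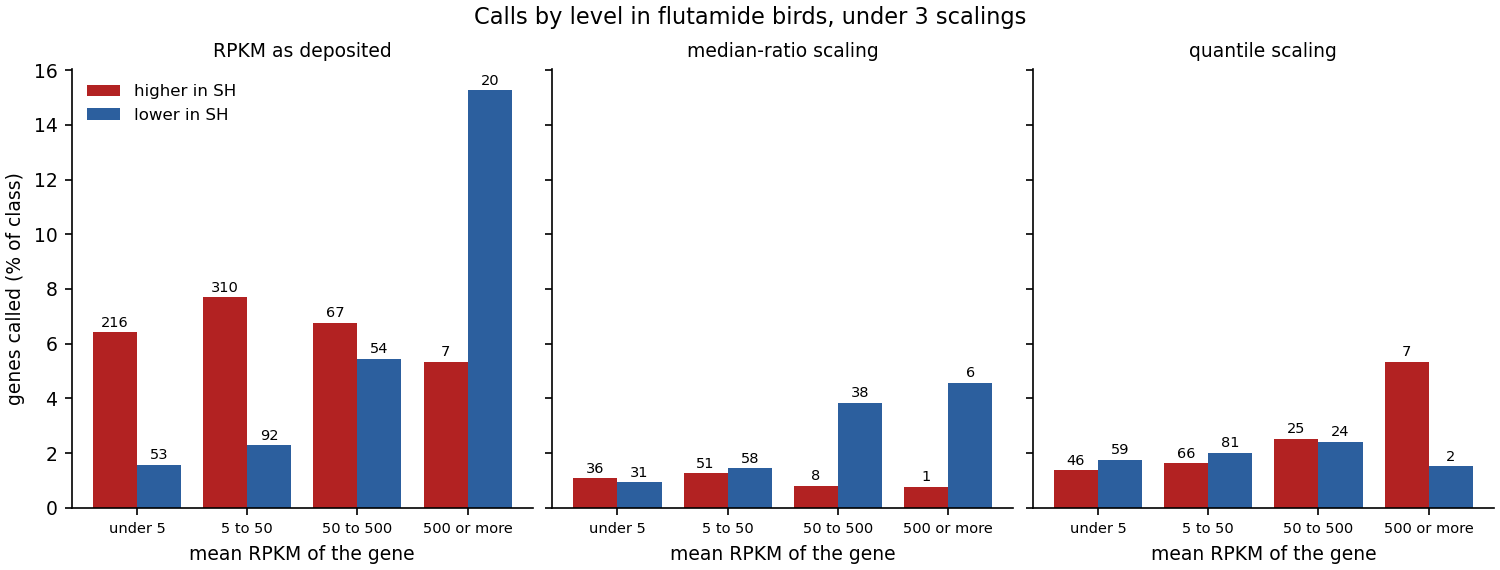
Genes called higher (red) or lower (blue) in SH of flutamide birds, as a percentage of the genes tested in each class of mean RPKM, with the number of genes above each bar. The 3 panels show RPKM as deposited and 2 other scalings, and the 20 abundant genes called lower as deposited become 6 and 2.

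The difference between the muscles went with the length of the gene. Lengths are those behind the deposited RPKM, as recovered with the reads. Genes called lower in SH had a median length of 617 bases, against 1331 for those called higher and 1287.5 for all tested. Of 945 genes shorter than 500 bases, 92 (9.74%) were called lower in SH, against 65 of 2036 from 500 to 1000 bases, 54 of 3307 from 1000 to 2000 bases and 8 of 2224 (0.36%) of 2000 bases or more. Calls higher in SH made up 7.62% of the shortest class and 8.23% of the longest, and were not ordered by length. The median difference over all genes of a class was -0.06, 0.13, 0.25 and 0.37 from the shortest class to the longest.

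This order was seen in each flutamide bird. From the shortest to the longest class the medians were -0.12, 0.07, 0.22 and 0.35 in bird 1. They were 0, 0.23, 0.40 and 0.57 in bird 2 and -0.07, 0.04, 0.11 and 0.19 in bird 3. Within each class of level the shortest genes also had the lowest median and the longest the highest. From 50 to 500 RPKM, 26 of 134 genes under 500 bases were called lower and 3 higher, while 1 of 97 genes of 2000 bases or more was called lower and 17 higher. In that class of level, median-ratio scaling gave 14 lower and 0 higher among the shortest genes and 2 lower and 2 higher among the longest, and quantile scaling 11 and 0 against 1 and 5. With median-ratio scaling the medians by length were -0.32, -0.13, -0.005 and 0.12, and with quantile scaling -0.24, -0.07, 0.03 and 0.11, so the order held under both. In the T-only birds the medians were 0.22, 0.52, 0.66 and 0.82 in bird 1 and -0.08, 0.21, 0.37 and 0.49 in bird 3. In T-only bird 2 they were 0.08, 0.19, 0.19 and 0.23, with no rise between the middle classes. Genes are not independent replicates, and no test was made over them.

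**Figure D4:**
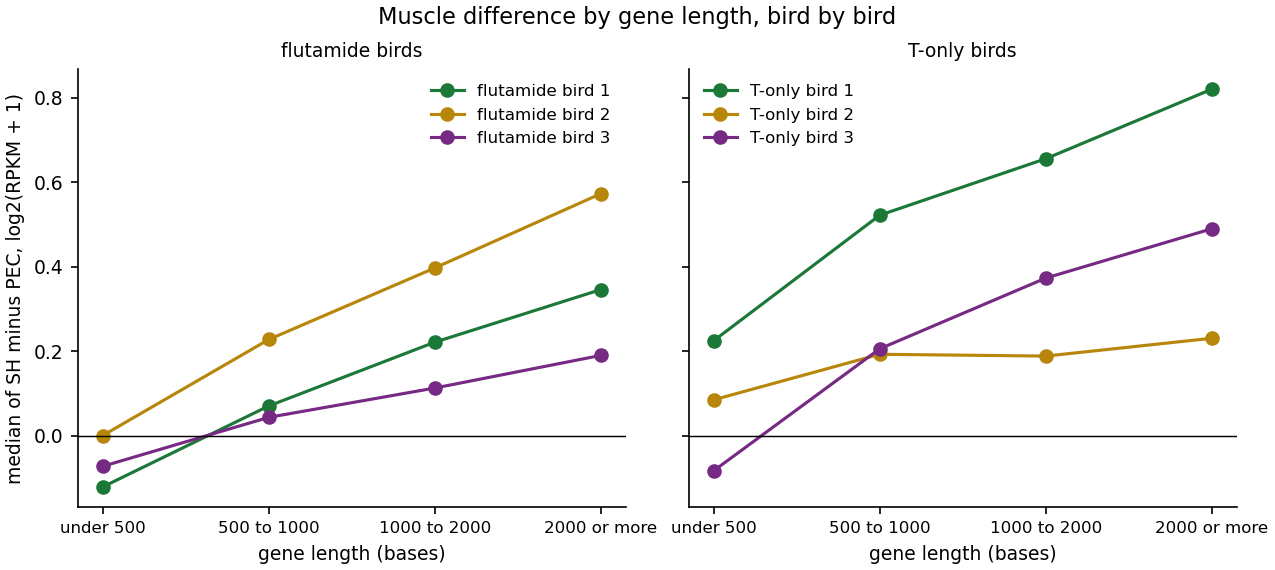
Median difference between muscles (SH minus PEC, log2(RPKM + 1)) over the genes of each length class, 1 line for each bird, in flutamide (left) and T-only (right) zebra finches. Each flutamide line rises from at or below zero in genes under 500 bases to between 0.19 and 0.57 in genes of 2000 bases or more.

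The birds did not contribute alike. SH was above PEC in 62.1%, 72.5% and 61.1% of the genes tested in birds 1, 2 and 3. Differences of at least 2-fold numbered 848 higher and 446 lower in bird 1, 1352 and 393 in bird 2, and 319 and 191 in bird 3. Bird 3 thus had the smallest contrast between its muscles, and its SH and PEC libraries were also the most alike (r = 0.963 across genes, against 0.935 and 0.934 in birds 1 and 2). The same sign in all 3 birds was seen in 3424 genes higher (40.2%) and 1103 lower (13%). The other 3985 genes had mixed signs or no difference in at least 1 bird. All 600 genes called higher and 217 of 219 called lower had 1 sign in all 3 birds. The paired test used these same differences, so this is no separate check. In the called genes the median difference was 1.17, 1.31 and 0.79 in birds 1, 2 and 3 for those higher in SH, and -1.32, -1.32 and -0.79 for those lower. Leaving out a bird changed the count of calls from 819 to 292 without bird 1, 122 without bird 2 and 1624 without bird 3.

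The muscle differences of flutamide birds recurred in the T-only birds, which share no library with them. Of the genes called in flutamide birds and measured at 1 RPKM or more in at least 3 T-only libraries, 588 of 592 called higher and 192 of 214 called lower had the same sign in the mean of the T-only birds. Over all 8343 genes so measured, 75.8% were higher in T-only SH and 24.2% lower. The genes called in flutamide birds include 53 higher and 12 lower that were below 1 RPKM throughout 1 muscle. Where such a gene met the T-only level through 1 muscle alone, its sign was fixed beforehand, and such genes were not set apart. The same sign in each of the 3 T-only birds was found for 540 of the 600 genes and for 136 of the 219. Over all 8512 genes tested in flutamide birds, 4137 were higher in SH of all 3 T-only birds and 866 lower. In their own test, limma with the bird as a block, the T-only birds had 1970 genes called of 9155 (21.5%), 1793 higher (19.6%) and 177 lower (1.93%) in SH. The count was 307 without T-only bird 1, 1623 without bird 2 and 1006 without bird 3. Median-ratio scaling gave 699 T-only calls higher in SH against 638 lower, and quantile scaling 533 against 379. The lists shared 408 genes higher in SH, which is 68% of the flutamide list and 22.8% of the T-only list. They shared 91 genes lower in SH, 41.6% of the flutamide list and 51.4% of the T-only list, and 4 genes were called in opposite directions.

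The 4 genes with the largest differences differed in the same direction in T-only birds. ENSTGUG00000010713 had 535, 554 and 1133 RPKM in T-only SH against 4.07, 0.445 and 6.57 RPKM in PEC. ENSTGUG00000006624 was at 30.9, 55.4 and 43.6 RPKM in SH, and a single PEC library had any reads, 3 in bird 2. ENSTGUG00000006008 had 490, 818 and 374 RPKM in SH against 23674, 22001.5 and 22396 RPKM in PEC. ENSTGUG00000001851 again spread widely among birds, at 1014, 93.2 and 14.2 RPKM in PEC and at 12.3, 0.489 and 0 in SH. The difference of the muscle differences, flutamide minus T-only, was 0.43 ± 0.48, 0.06 ± 0.38, 0.47 ± 0.55 and 0.15 ± 0.84 in this order (SE, limma adjusted p from 0.92 to 0.993). With SEs of this size, these values do not show that the muscle differences were equal. ENSTGUG00000006624 entered this test through its SH libraries alone.

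**Figure D5:**
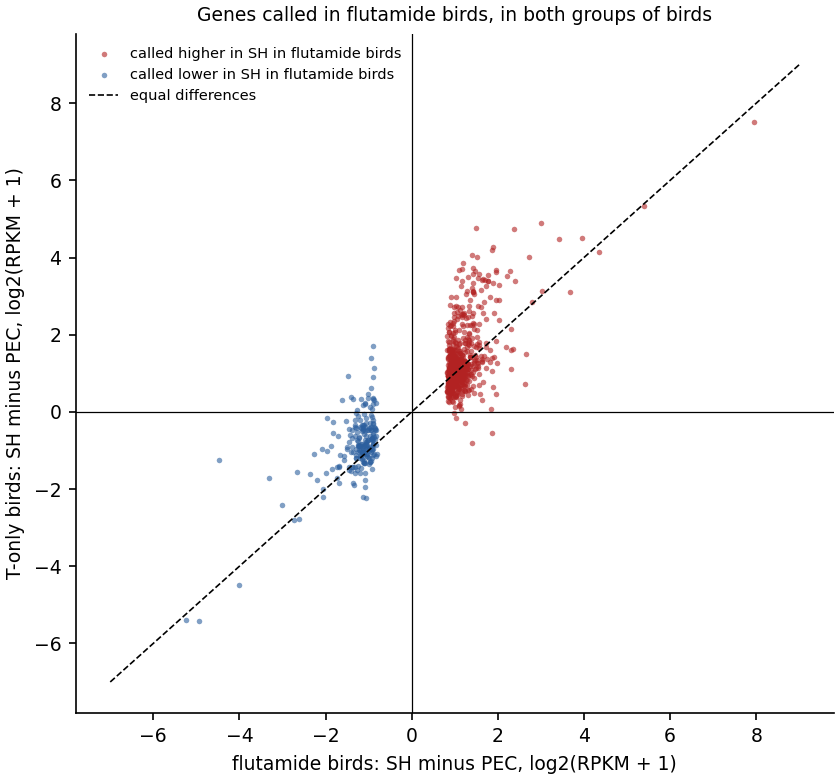
Difference between muscles (SH minus PEC, log2(RPKM + 1)) in flutamide birds (horizontal) and T-only birds (vertical) for the 819 genes called in flutamide birds, with a dashed line of equal differences. Genes called higher in SH lie mostly above zero in T-only birds too, many of them above the dashed line, and the calls were made on the horizontal values alone.

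By limma on RPKM, no gene was shown to have a different muscle difference under flutamide. The test of muscle by treatment over all 12 finch libraries, with the 6 birds as a block, called 0 of 9606 genes (0%) in limma, while 1004 had an unadjusted p under 0.05. The smallest limma adjusted p was 0.108. On the recovered reads limma-voom called 7, all with a lower SH minus PEC difference in flutamide birds, and without T-only bird 2 limma called 6, and without flutamide bird 2 it called 1, again all lower. The median SE of this difference was 0.37, against 0.25 for the muscle difference itself, so moderate differences between the groups were hard to detect. The median over all genes was 0.25 in flutamide birds and 0.43 in T-only birds as deposited. With median-ratio scaling the median difference between the groups went from -0.16 to 0.02, so its sign depended on the scaling.

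The gene nearest to the threshold on each side had few reads in flutamide birds. ENSTGUG00000018460 had 7 reads in SH of bird 2, 5 reads in PEC of bird 1 and none in the other 4 flutamide libraries. In T-only SH it was at 124, 14.3 and 25.9 RPKM, and in T-only PEC it had 3 reads in bird 3 and none in the others. The gene met the level needed for testing only through the 3 T-only SH libraries where it was high, so its difference of muscle differences, -5.05, is given as a description and not as a test. ENSTGUG00000018152 had 4, 8 and 9 reads in flutamide SH and 0, 0 and 1 in PEC. In T-only birds it had 0, 1 and 0 reads in SH and 3, 12 and 0 in PEC. It reached 1 RPKM only in the 3 flutamide SH libraries and in T-only PEC of bird 2, the libraries that make its difference positive. That difference of muscle differences, 2.20, is thus also a description and not a test, on counts too low to read a level from. The gene was among the 600 called higher in SH of flutamide birds, on these same few reads and through its SH libraries alone.

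In manakins, whose reads were assigned to zebra finch genes, the same genes leaned the same way less uniformly. With blank implants, 368 of 468 genes called higher in flutamide finches were higher in manakin SH, and 80 of 121 called lower were lower, against 59.2% higher and 40.8% lower of 6508 genes measured. With testosterone implants the counts were 426 of 469 and 82 of 120, against 76% higher and 24% lower of 6521. With median-ratio scaling, which brought the share of all genes higher in SH to 50.4% and 51.4%, they were 61 of 73 and 58 of 79 with blanks and 59 of 76 and 67 of 81 with testosterone. In blank manakins ENSTGUG00000006624 averaged 409.9 ± 39.8 RPKM in SH against 14.8 ± 13.2 in PEC, and at 427 ± 212 and 13 ± 9.99 with testosterone (SD, n = 3 each). For ENSTGUG00000001851 the means were 11.1 ± 11.4 RPKM in SH and 40.1 ± 28.4 in PEC of blank manakins, and 59.3 ± 20 and 62.5 ± 41.4 with testosterone (SD, n = 3 each). Its SH and PEC means in manakins lay closer together than in finches. ENSTGUG00000006008 kept a deficit in manakin SH, with 204 ± 69.9 against 26659 ± 1539 RPKM under blanks and 203 ± 278 against 14020 ± 3048 RPKM with testosterone (SD, n = 3 each). ENSTGUG00000010713 was higher in SH, at 5092 ± 869 against 846 ± 215 RPKM with blanks and 7401 ± 3005 against 1345 ± 991 RPKM with testosterone (SD, n = 3 each), and its manakin PEC level was far above that of finch PEC. How far sequence divergence between the species affects these levels was not tested.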

How the data were processed

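RNA was taken up in Trizol, depleted of ribosomal RNA, selected for polyA and made into stranded TruSeq libraries, per the labels' protocols. The deposited values are RPKM per Ensembl release 68 gene, per the file headers, and only values above 0 are listed, so an unlisted gene was read as 0. Tools named in the submitters' processing notes are cutadapt, Bowtie 0.12.9 and CASAVA. Genome build, counting and use of strand are not given in the sources used here, so reads shared by near-identical or overlapping genes can be split or misplaced. Whole reads, library totals and gene lengths were solved from the finch RPKM. Of 136090 values, 136090 were whole to a relative tolerance of 3e-13. For a gene listed in few libraries, reads and length may both be short by a common factor.

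The RPKM called for a test on log2(RPKM + 1) with limma 3.58.1 (R 4.3.3), moderated variances and Benjamini-Hochberg adjustment over all genes kept (at least 1 RPKM in at least 3 libraries). The bird was a block, since SH and PEC of a number carry 1 bird code. Across genes, the correlation of the pair's deviations from their group means was 0.396, 0.362 and 0.30 in birds 1, 2 and 3. No such value is given for SH and PEC libraries of different birds, so these values are no test of the pairing. Flutamide libraries of a group differed by 49.9 to 104 times sampling noise (chi-square per degree of freedom), so none was a repeated deposit. The fits and the recovery were also run on simulated data, and the outcome is not given here. Alternatives were no block, no or a stricter filter, other pseudocounts, 2 other scalings, a variance trend, limma-voom, all 12 finch libraries and leaving out each bird. Comparisons and lists were chosen with earlier results of these data known. Genes named are the 2 in each direction with the largest difference among those called with 1 sign in 3 birds, and the gene with the smallest p on each side of the test by treatment. The 12 pathway and 12 cell type lists, given by symbol, could not be matched and were not tested. Floors of 3 reads and the bounds drawn from them cover counting error only. Each SE comes from the fit, with its variance moderated over all genes, and each SD from the spread between birds. Tables and plots used matplotlib 3.10.9, pandas 2.3.3 and numpy 2.4.6 under Python 3.11.15.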

Additional observations from a re-analysis of the deposited data

How the results depend on the processing

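Counts of called genes moved widely with the processing, and the cause was not tested. Against 819 genes in flutamide birds, limma called 95 with no replicate block (pairing left out), 5 with no filter, 82 with a pseudocount of 0.1, 229 with median-ratio and 310 with quantile scaling, 1740 with limma-voom, and 113 in a fit of all 12 finch libraries, or 67 there with no replicate block, an alternative added after seeing the data. Counts closer to 819 came with a filter at 5 RPKM (1081), a pseudocount of 5 (621) and a variance trend (972). Leaving out a bird gave 122 to 1624. Against 1970 in T-only birds, limma called 1151 with no replicate block, 378 with no filter, 879 with a pseudocount of 0.1 and 912 with quantile scaling. It called 1418 with a filter at 5 RPKM, 1583 with a pseudocount of 5, 1337 with median-ratio scaling and 2131 with a variance trend. With limma-voom the count was 2539, and in the fit of all 12 finch libraries 2437, or 1843 there with no replicate block. Leaving out T-only bird 1, 2 or 3 gave 307, 1623 and 1006. The share of calls higher in SH went from 73.3% to 41.9% and 46.5% with median-ratio and quantile scaling in flutamide birds, and from 91% to 52.3% and 58.4% in T-only birds. The test by treatment called 7 with limma-voom and 0 to 6 without a bird (6 without T-only bird 2, 1 without flutamide bird 2), and 0 with no replicate block and in its other alternatives. From the lowest class of level to the highest, calls higher in SH numbered 36, 51, 8 and 1 under median-ratio scaling and calls lower 31, 58, 38 and 6. Quantile scaling gave 46, 66, 25 and 7 higher and 59, 81, 24 and 2 lower. Among genes called in flutamide birds, 86.2% had the same sign in manakins with testosterone, and 80.3% and 78.6% with these scalings. Over all genes measured in both, 76%, 51.4% and 47% were higher in SH of these manakins in the same order, and 24%, 48.6% and 53% lower. The shares of called genes thus stand against unlike backgrounds, and their fall alone does not show weaker agreement. ENSTGUG00000010713 stayed called in 14 of 14 alternatives and ENSTGUG00000006624, which enters the test only through its SH libraries, in the 11 that tested it. ENSTGUG00000006008 lost its call with no filter (adjusted p = 0.106). ENSTGUG00000001851 lost its call in 3 of 14: with no filter (0.112), with no replicate block (0.0836), and with no replicate block in the fit of 12 libraries (0.124). The uncalled difference by treatment changed sign for ENSTGUG00000006624 with a pseudocount of 5 (-0.0018), without T-only bird 1 (-0.11) and without flutamide bird 1 (-0.14) or 2 (-0.09), in a range of -0.14 to 0.42 with a bird left out. It did so for ENSTGUG00000001851 with a pseudocount of 5 (-0.46), without T-only bird 1 (-0.28) or 2 (-0.15) and without flutamide bird 1 (-0.75), in a range of -0.75 to 0.96. Depth limits the rarest calls, which rested on as few as 16 reads over the 6 libraries (median 1086 for genes called higher and 1251 for those called lower).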

Other observations

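Of the 819 genes called in flutamide birds, 20 were also called in each of 13 alternatives, all those run but the one with no filter, and 12 of them were higher and 8 lower in SH. Genes that were not tested once a bird was left out are not among the 20.

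In 65 genes the birds went opposite ways by at least 2-fold, with SH above PEC in 1 bird or more and below it in another. None of the 65 was called by limma, but opposite differences between birds make a call unlikely in a test paired by bird. Between birds the spread was of the same order in the muscles, with a median SD of 0.28 in SH and 0.33 in PEC on log2(RPKM + 1) over the 8512 genes tested. Replicate libraries of a muscle correlated at 0.953 to 0.96 in SH and 0.951 to 0.954 in PEC across genes, and the SH and PEC libraries of bird 3 correlated more closely than any of these, at 0.963.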
